A study of Mus musculus with 6 samples.

Results

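The 10 genes described here encode the TGF-β ligands (*Tgfb1*, *Tgfb2*, *Tgfb3*), their receptors and coreceptors (*Tgfbr1*, *Tgfbr2*, *Tgfbr3*, *Eng*, *Acvrl1*) and latent binding proteins (*Ltbp1*, *Ltbp2*). They were followed in 1G11 cells, a microvascular endothelial line from C57BL/6NCrLBR mice. RNA was taken from 1G11-mock cells, the control, and from 1G11-SOD3 cells, which overexpress the extracellular superoxide dismutase SOD3. Before harvest, both lines spent 6 h in conditioned medium of the mouse mammary cancer line N202.1A, and no group without that medium was analysed here. There were 3 biological replicates per line, each hybridized to 1 single-color Agilent array. Each condition is 1 cell line, and all arrays of a line lay in 1 row of the slide, so that SOD3, other properties of the line and the slide row cannot be told apart. The genes were found by the RefSeq sequence on which a probe was designed. They are 10 of 22636 genes with a symbol on the array and are covered by 13 of the 55681 probes and by 31 of the 59305 non-control spots.

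TGF-β is secreted in a latent form, in which its propeptide holds the growth factor inactive, and LTBP1 ties this complex to the extracellular matrix. Released ligand binds TGFBR2, which recruits and phosphorylates TGFBR1 and so starts signaling through SMAD2 and SMAD3. Endothelial cells also use ACVRL1 (ALK1), a type I receptor that signals through SMAD1 and SMAD5, with endoglin (*Eng*) as its coreceptor, and betaglycan (*Tgfbr3*) presents ligand, above all TGF-β2. LTBP2 belongs to the same family as LTBP1 but is a protein of elastic fibers that is not known to carry latent TGF-β.

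Each probe is a 60-base oligonucleotide, and a value of the text is a reading of that oligonucleotide, not of the gene as a whole. The first 30 bases, 5′ to 3′, are shown for the probes on which the results turn. *Ltbp2* was the gene called differentially expressed and *Eng* the nearest to it. *Tgfb1* and *Tgfb3* have 1 probe each that is printed 10 times, which allows the same sequence to be read at different places of the array. *Acvrl1* was measured at a single disturbed place, and *Tgfb2* has a pair of probes that were both well above background on all arrays.
Ltbp2: aaatgcacttccatacaagctagctggggg
Eng: tacagaactgcccaatccaggggctctggg
Tgfb1: actgcccatcgtctactacgtgggtcgcaa
Tgfb3: tcccatgtctgacatgatgactcggcccca
Acvrl1: tgtgcctgctcagcttggctcccagcccat
Tgfb2, brighter probe: attggaaatacgcccaagatcgaacagctt
Tgfb2, second probe: tcatccattatttccctgatttcattgaaa
The files place them on chromosome 12 from 86124167 to 86124226 (*Ltbp2*), chromosome 2 from 32537268 to 32537327 (*Eng*), chromosome 7 from 26489877 to 26489936 (*Tgfb1*), chromosome 12 from 87397804 to 87397863 (*Tgfb3*), chromosome 15 from 100974010 to 100974069 (*Acvrl1*) and chromosome 1 from 188449333 to 188449392 and from 188447534 to 188447593 (*Tgfb2*). They name no genome build, and the exon or UTR in which a probe lies was not analysed here.

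Values are log2 intensities after background correction and quantile normalization, and a difference is that of 1G11-SOD3 minus 1G11-mock. Between 34.2% and 43.8% of spots per array were well above background, and none was saturated. A rectangle at the center of the array, called the middle here, holds 6606 of the 59305 spots and read low on the 1G11-mock arrays, and its spots are reported apart. It holds 4 of the 31 spots, 2 of *Tgfb1*, 1 of *Tgfb3* and the only spot of *Acvrl1*. A probe counted as called where the lines differed over 2-fold with adjusted p below 0.05 (limma, Benjamini-Hochberg over 55961 values, with copies in and outside the middle counted apart). *Sod3*, the check of the labels, also lies in the middle and was higher in 1G11-SOD3 cells by 4.27 (adjusted p = 0.00763, limma), or by 2.63 after the position adjustment described below. Of 10 endothelial marker genes, *Kdr*, *Vwf* and *Esam* (the last in the middle) were well above background on all arrays, whereas *Cdh5* (VE-cadherin), *Tek*, *Tie1*, *Emcn* and *Erg* were so on none.

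Of the 10 genes, *Ltbp2* was called higher in 1G11-SOD3 cells and none was called lower. Of all probes 3.02% were called, and of those outside the middle 1.86%, with 0.66% higher and 1.2% lower. Among probes outside the middle that were well above background on all arrays, 4.57% were called, 1.27% higher and 3.3% lower. A count of 1 among 10 genes is not set apart from these shares by any test here. *Eng*, *Tgfbr3* and *Tgfb1* had differences below 0 and *Tgfb3* above 0, none of them past the threshold. *Tgfb2*, *Tgfbr1*, *Tgfbr2* and *Ltbp1* lay within 0.16 of 0 by their brightest probe, though *Tgfb2* and *Ltbp1* were 0.38 and 0.45 after the position adjustment. Of the 12 member probes outside the middle, 10 were well above background on all arrays. Their median difference was -0.01, against -0.17 for all 15177 such probes. Of these 10, 5 had no overlap between the lines (28.9% of all such probes, and 19.7% of all probes outside the middle) and 6 had an unadjusted p under 0.05 (24.3% and 12.7%), which is a description of probes read on the same 6 arrays. These are bulk measurements, in which fewer cells that express a gene and less RNA per cell cannot be told apart.

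**Figure D1:**
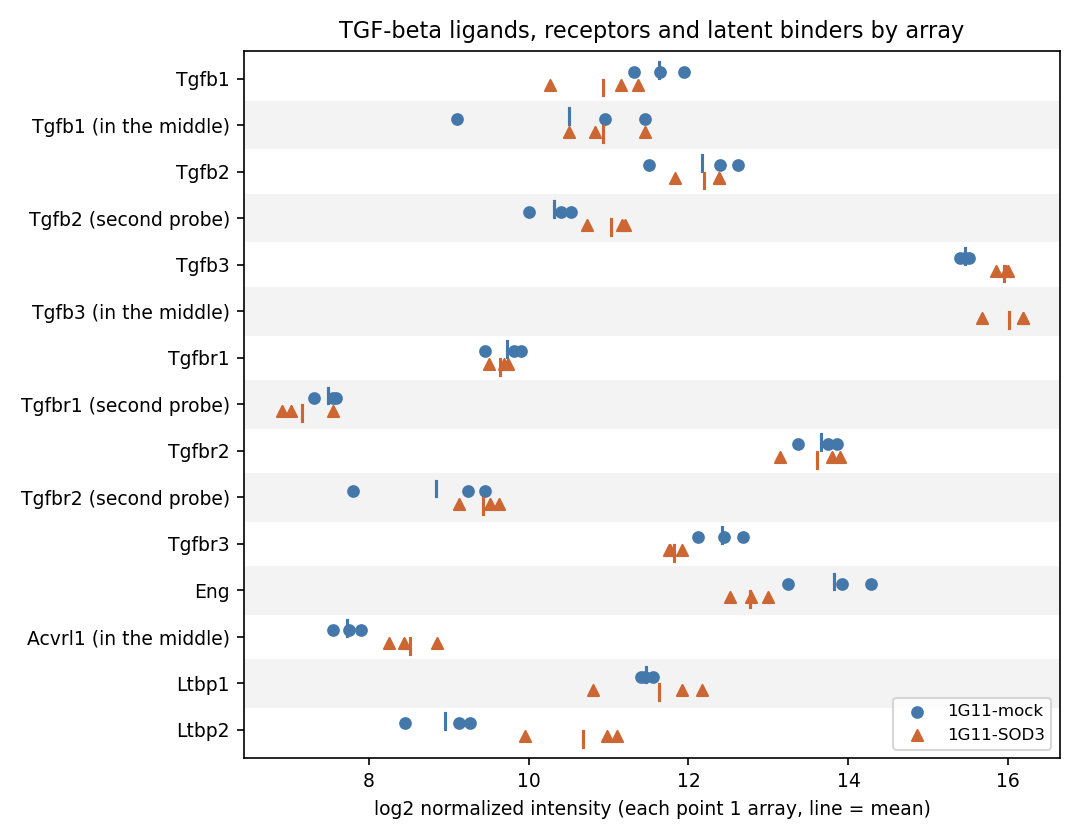
Log2 normalized intensity of each probe (x axis) on the 6 arrays, with 1G11-mock as circles, 1G11-SOD3 as triangles and a vertical line for the mean of a line. The 3 triangles of *Ltbp2* lie right of its circles and those of *Eng* and *Tgfbr3* left of theirs, and levels of different probes cannot be compared.

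Among the ligands, *Tgfb1*, the form best known from platelets and inflamed tissue, was read by 8 copies outside the middle. For replicates 1, 2 and 3 in turn, their average was 11.32, 11.95 and 11.64 on the 1G11-mock arrays and 11.37, 11.15 and 10.27 on the 1G11-SOD3 arrays. The lines overlapped, since 1G11-SOD3 replicate 1 read above 1G11-mock replicate 1, and replicate 3 was the low array of the 1G11-SOD3 line. The difference was -0.71 (standard error 0.307, 95% interval -1.38 to -0.03, adjusted p = 0.318, limma). All 8 copies were lower in 1G11-SOD3 cells, by values from -1.04 to -0.20, but they are copies on the same arrays and add no replicate.

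The copies of *Tgfb1* in the middle read otherwise. At row 187 and column 85, the same sequence gave 8.23, 7.49 and 7.91 on the 1G11-mock arrays, against 11.42, 10.30 and 10.52 on the 1G11-SOD3 arrays. The copies outside lay between 10.82 and 12.29 on the 1G11-mock arrays, so that this spot was dimmer than every one of them, and it alone would give a difference of 2.87. The copy at row 214 and column 105 gave 0.21. A further copy just outside the middle, at row 233 and column 110, gave -0.20, the value nearest to 0 of the 8. The average of the copies in the middle was 0.42 (95% interval -0.68 to 1.52, adjusted p = 0.763, limma), with outlier spots left out, since the scanner software had marked the dim copy on 2 of the 1G11-mock arrays. With those spots kept it was 1.54 (adjusted p = 0.0131, limma) and the middle copies alone would be called higher, opposite in sign to the copies outside.

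*Tgfb3*, a ligand expressed in mesenchyme and in developing palate, was read by 9 copies outside the middle. They averaged 15.51, 15.40 and 15.46 on the 1G11-mock arrays and 16, 15.85 and 15.97 on the 1G11-SOD3 arrays. Every 1G11-SOD3 array was above every 1G11-mock array, and the SD was 0.06 and 0.08 (n = 3 each). The difference of 0.49, or 1.40-fold (standard error 0.209, 95% interval 0.03 to 0.94, adjusted p = 0.312, limma), was below the threshold for fold as well. Its copy in the middle, at row 136 and column 77, read 14.11, 14.46 and 10.65 on the 1G11-mock arrays and was marked as an outlier on all 3, so that no test was made there. The raw difference of this copy was 2.94. The 9 copies elsewhere gave 0.27 to 1.20, and the highest of these came from a copy near the edge of the middle that was also marked as an outlier on 1 of the 1G11-mock arrays.

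**Figure D2:**
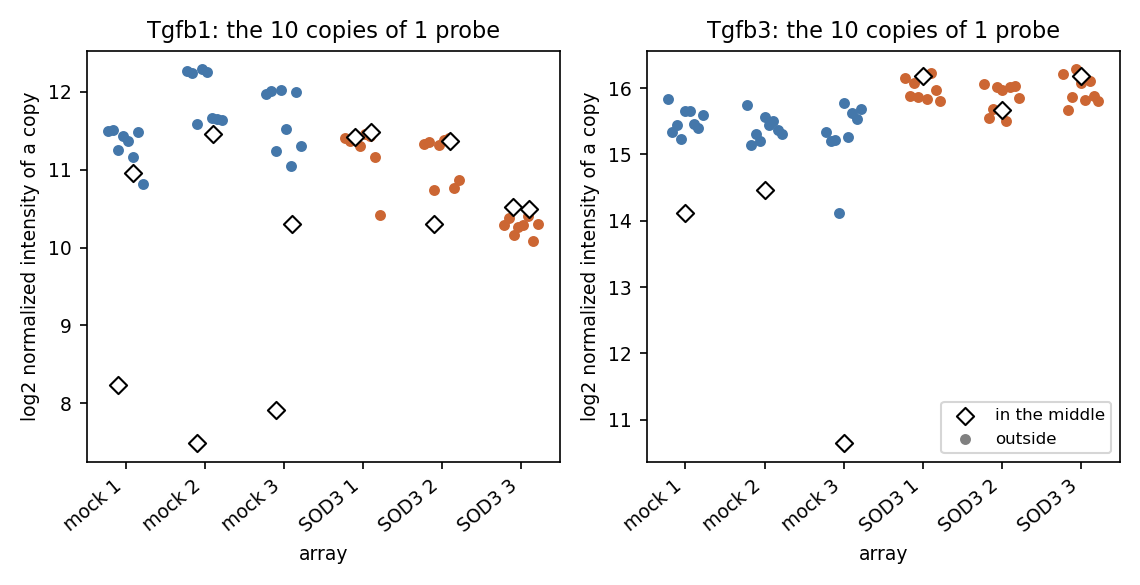
Log2 normalized intensity (y axis) of each of the 10 copies of the *Tgfb1* and *Tgfb3* probes on every array (x axis), with copies in the middle of the array as open diamonds and the others as filled points. The *Tgfb1* copy at row 187 lies between 7.49 and 8.23 on the 1G11-mock arrays, below every copy outside the middle.

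*Tgfb2*, the ligand that depends most on betaglycan, has a pair of probes whose starts lie 1799 bases apart. The brighter read 12.62, 11.51 and 12.39 on the 1G11-mock arrays and 12.38, 12.38 and 11.83 on the 1G11-SOD3 arrays, a difference of 0.02 (95% interval -0.65 to 0.70, adjusted p = 0.984, limma). The second, nearer the 3′ end by its coordinates and strand, read 10.40, 10.01 and 10.53 against 11.17, 11.20 and 10.73. The lines overlapped on the brighter probe and not on the second, whose difference was 0.72 (95% interval 0.18 to 1.25, adjusted p = 0.177, limma). Neither passed, and whether the probes differ from each other was not tested. The gap between them depended on the processing, with 0.38 for the brighter and 0.67 for the second after position adjustment, and 0.71 and 0.53 with the scanner's own processed signal.

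Of the signaling receptors, *Tgfbr2*, the type II receptor that binds ligand first, read 13.74, 13.37 and 13.86 on the 1G11-mock arrays and 13.89, 13.14 and 13.79 on the 1G11-SOD3 arrays. The ranges almost coincided, and the difference was -0.05 (95% interval -0.63 to 0.53, adjusted p = 0.957, limma). The interval lies within 2-fold on either side. Its second probe gave 0.59 (95% interval -0.24 to 1.43) and on 1 of the 1G11-mock arrays was not well above background. *Tgfbr1*, the type I receptor ALK5, read 9.90, 9.46 and 9.82 in 1G11-mock and 9.74, 9.69 and 9.51 in 1G11-SOD3 cells, again with overlap. Its difference was -0.08 (95% interval -0.58 to 0.41, adjusted p = 0.911, limma). A second probe of *Tgfbr1* was well above background on no array, and no fold is given for it.

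*Acvrl1*, the type I receptor that endothelial cells use for BMP9 and TGF-β, has 1 spot, at row 208 and column 71 in the middle. It read 7.90, 7.75 and 7.55 on the 1G11-mock arrays, well above background on none of them, and 8.86, 8.44 and 8.26 on the 1G11-SOD3 arrays, well above background on all 3. Taken as it stands, this is at least 1.35-fold higher in 1G11-SOD3 cells (measured difference 0.79, adjusted p = 0.125, limma), where the bound sets each 1G11-mock array at the lowest signal that was well above background there. The bound makes no allowance for place. After position adjustment the difference was -1.25 (adjusted p = 0.0731, limma), so that the direction turned and the arrays give none for *Acvrl1*. The surface taken off was higher by 2.48 on the 1G11-SOD3 arrays than on the 1G11-mock arrays at this spot, where the 1G11-mock readings were at background.

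The coreceptors read lower in 1G11-SOD3 cells, though neither passed the threshold. *Eng*, a marker of proliferating endothelium, read 13.25, 13.92 and 14.28 on the 1G11-mock arrays and 12.99, 12.52 and 12.78 on the 1G11-SOD3 arrays. The lines did not overlap, and replicate 1 was the lowest of the 1G11-mock arrays and the highest of the 1G11-SOD3 arrays. The difference was -1.05 (standard error 0.286, 95% interval -1.68 to -0.42, adjusted p = 0.0822, limma), or 2.07-fold. Without 1G11-mock replicate 1 it was -1.34 and was called (adjusted p = 0.0237, limma). After position adjustment it was -0.70 (adjusted p = 0.139, limma). The surface at the *Eng* spot differed between the lines by 0.05. Quantile normalization followed its removal, so this value is not the size of the change. With the scanner's processed signal it was -0.57 (adjusted p = 0.193, limma). *Tgfbr3* read 12.12, 12.68 and 12.45 against 11.76, 11.92 and 11.77, with no overlap. Its difference was -0.60 (standard error 0.230, 95% interval -1.11 to -0.10, adjusted p = 0.24, limma).

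Of the latent binding proteins, *Ltbp2* was 3.32-fold higher in 1G11-SOD3 cells. It read 9.27, 8.45 and 9.13 on the 1G11-mock arrays (8.95 ± 0.44, SD, n = 3) and 10.98, 11.10 and 9.96 on the 1G11-SOD3 arrays (10.68 ± 0.63, SD, n = 3), well above background on all of them. Every 1G11-SOD3 array was above every 1G11-mock array, with replicate 3 the nearest. The difference was 1.73 (standard error 0.335, 95% interval 1.00 to 2.47, adjusted p = 0.0179, limma). Its spot lies at row 65 and column 80, above the middle, where the position surface differed between the lines by 0.70. The adjusted difference was 1.52 (adjusted p = 0.0327, limma) and was called. With 1 array left out it ran from 1.5 to 2.07, and the call was lost without 1G11-mock replicate 2 (adjusted p = 0.0889, limma), without 1G11-SOD3 replicate 1 (0.0781) or without 1G11-SOD3 replicate 2 (0.0655).

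*Ltbp1*, which does bind latent TGF-β, read 11.56, 11.45 and 11.41 on the 1G11-mock arrays and 12.17, 11.92 and 10.80 on the 1G11-SOD3 arrays. The 1G11-mock arrays were close together and the 1G11-SOD3 arrays lay on either side of them, so that the difference was 0.16 (95% interval -0.56 to 0.87, adjusted p = 0.877, limma). Without 1G11-SOD3 replicate 3 it was 0.58, with all arrays it was 0.45 after position adjustment, and with the scanner's processed signal it was 0.73. Replicate 3 was the lowest of its line for 6 of the 10 genes, *Tgfb1*, *Ltbp1*, *Ltbp2* and, in the middle, *Acvrl1* among them, and the highest for none. Over all 15177 probes outside the middle and well above background on all arrays, it was the lowest of its line for 43.3% and the highest for 32.1%.

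**Figure D3:**
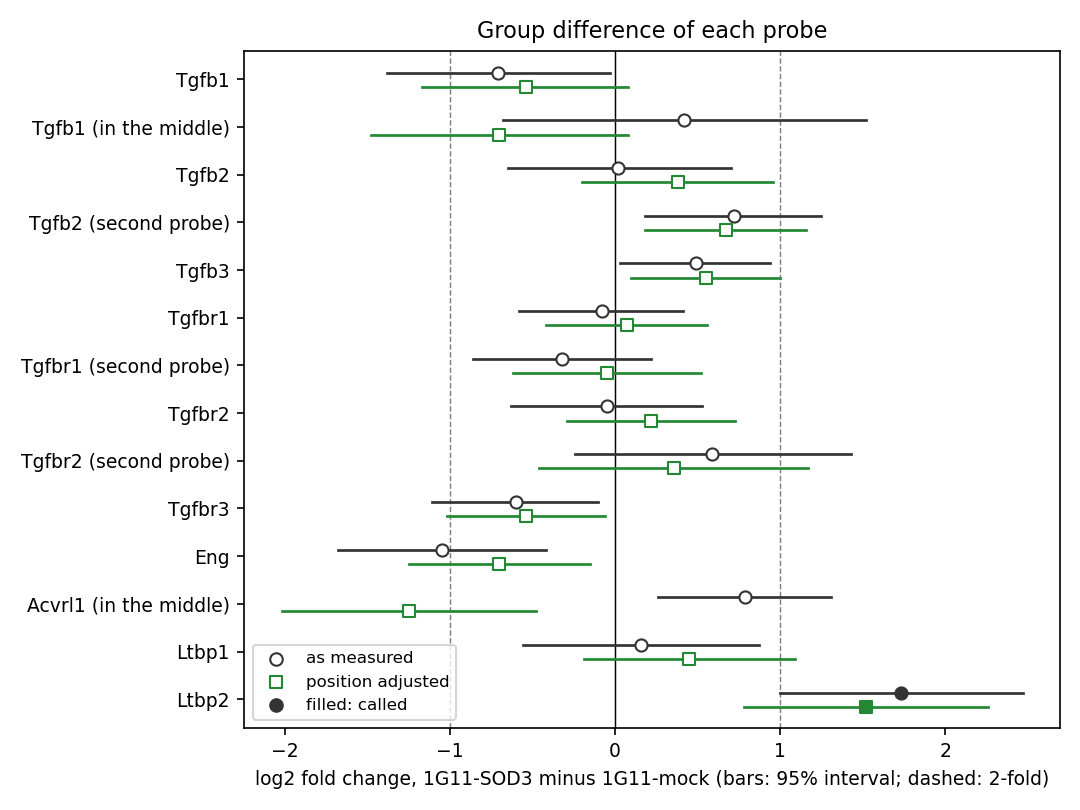
Log2 fold change of each probe (x axis, 1G11-SOD3 minus 1G11-mock) with its 95% interval, as measured (circles) and after position adjustment (squares), filled where called. *Ltbp2* is filled both ways, and the points in the middle of the array, *Acvrl1* and *Tgfb1*, change sign with the adjustment.

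To reduce the effect of place, a smooth surface over row and column was also taken off each array, before quantile normalization. Copies of a probe then differed less among themselves, with the SD of their group differences at 0.161 in place of 0.51. This SD is the median over 192 brighter probes printed 10 times, before quantile normalization. The surface had been chosen by this same SD on these probes, against coarser ones at 0.173 and 0.163, so 0.161 is no separate check of it. After the adjustment, *Tgfb1* was -0.54 outside the middle (adjusted p = 0.3, limma). In the middle it was -0.70 with outlier spots left out (adjusted p = 0.284, limma), whereas the copies there gave 0.24 and -0.18 with all spots kept, so that no direction can be read from them. *Tgfb3* outside the middle was 0.55 (adjusted p = 0.155, limma). The 9 copies of *Tgfb3* then ranged from 0.44 to 0.64, narrower than before. *Ltbp2* was the only one of the 10 genes called, while 1.89% of all probes outside the middle and 4.07% of all probes were. Calls outside the middle went from 920 to 934 probes and calls over all probes from 1692 to 2280. Most of the added calls thus lie in the middle, where adjusted values may still depend on place.

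The other genes of the pathway were read from lists of 53 genes. Of 12 genes for storage and activation of latent TGF-β, 1 was called higher and none lower. This was *Thbs1*, which encodes thrombospondin 1, an activator of latent TGF-β. It read 11.57, 11.62 and 11.86 in 1G11-mock and 12.93, 12.56 and 13.43 in 1G11-SOD3 cells, a difference of 1.29 (adjusted p = 0.0226, limma). Leaving out 1 array ended the call for 4 of the 6 arrays, which were replicates 1 and 2 of 1G11-mock and replicates 1 and 3 of 1G11-SOD3. The other 11 lay between -0.56 and 0.51. Among them, *Dcn* differed by 0.29 (adjusted p = 0.905, limma), with 13.51, 13.59 and 17.05 on the 1G11-SOD3 arrays (SD 2.02).

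None of 13 receptor partners and signal carriers and none of 10 inhibitors was called. *Smad3*, a carrier of the TGFBR1 signal, differed by -0.12 (95% interval -0.67 to 0.43). *Smad2* differed by 0.78 (adjusted p = 0.252, limma), with no overlap between the lines, and by 0.05 after position adjustment. It was well above background on 2 of the 3 1G11-mock arrays. *Smad4*, the partner shared by all these signals, differed by -0.71 (adjusted p = 0.253, limma), with no overlap between the lines, and by -0.36 after position adjustment. *Smad7*, an inhibitor that the pathway itself induces, differed by 0.98 (adjusted p = 0.282, limma) and read 8.64 on 1 1G11-SOD3 array and 10.39 and 10.11 on the others. It was well above background on 2 of the 3 1G11-mock arrays and was called without 1G11-SOD3 replicate 1.

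Of 18 target genes, 3 were called higher and 1 lower, and the median difference was 0.36. *Col1a1*, a chain of type I collagen, was higher by 3.1 (adjusted p = 0.00148, limma) and *Tagln*, an actin-binding protein of smooth muscle, by 1.45 (adjusted p = 0.0105, limma). *Id2*, named after its value was seen, was higher by 2.98 in the middle of the array and, at 1.21, not called after position adjustment (adjusted p = 0.0535, limma). *Cdkn1a*, the cell cycle inhibitor p21, differed by -2.20 (adjusted p = 0.00405, limma), with 14.51, 14.69 and 14.53 in 1G11-mock against 12.71, 12.85 and 11.55 in 1G11-SOD3 cells. *Id1*, a target of ACVRL1, has its spot in the middle and differed by 1.37 (adjusted p = 0.331, limma), against 0.25 after position adjustment. It was called without 1G11-mock replicate 1, and with scaling to the 75th percentile in place of quantiles. In all, 5 of 53 genes were called as measured, 4 higher and 1 lower, of which *Id2* lies in the middle, where 12% of all probes were called. The other 4 lie outside it and were well above background on all arrays, as were the probes of which 4.57% were called, 1.27% higher and 3.3% lower. After the adjustment also 5 were, 3 higher and 2 lower. The lower genes then included *Gdf2*, in the middle and well above background on no array, which went from -0.03 as measured to -2.57.

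**Figure D4:**
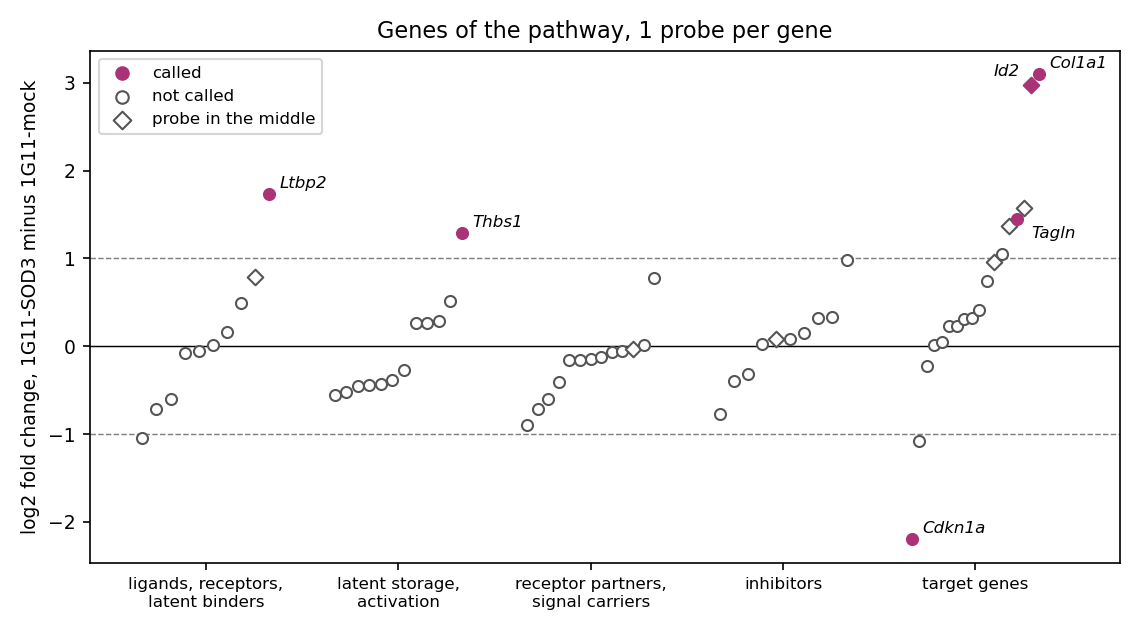
Log2 fold change (y axis, 1G11-SOD3 minus 1G11-mock) of each gene by its brightest probe outside the middle, or in the middle (diamonds) where there is no other, with called genes filled and named and dashed lines at 2-fold. *Ltbp2* and *Thbs1* are the called points outside the target genes, where *Col1a1*, *Id2* and *Tagln* are above 0 and *Cdkn1a* below.

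Among markers of other cells, genes were called in the smooth muscle, pericyte or fibroblast list, and no epithelial or leukocyte marker was called. Of 6 markers of smooth muscle, pericytes or fibroblasts, *Acta2* (2.62), *Pdgfrb* (2.39) and *Col1a1* were called higher. Of all probes outside the middle 0.66% were called higher, and 1.27% of those well above background on all arrays. *Pdgfra*, well above background on all arrays, differed by 0.27 (adjusted p = 0.619, limma), and *Myh11* and *Rgs5* were well above background on no array. The summed level of the 6, on the log2 scale, lay between 12.32 and 12.96 on the 1G11-mock arrays and between 14.83 and 15.19 on the 1G11-SOD3 arrays. *Col1a1* is also one of the target genes above and the brightest probe of this sum on the 1G11-SOD3 arrays, so the sum is no separate reading from it. *Acta2* read 10.10, 10.34 and 10.62 against 13.44, 13.15 and 12.32, and *Pdgfrb* read 8.41, 8.25 and 8.12 against 10.67, 10.48 and 10.79.

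The summed level of the 10 endothelial markers lay between 13.30 and 13.55 on the 1G11-mock arrays and between 13.02 and 13.22 on the 1G11-SOD3 arrays, with *Vwf* called lower (-1.65). *Kdr*, the brightest probe of this sum on every array, differed by -0.51 (adjusted p = 0.293, limma). *Esam*, in the middle, differed by 1.22 as measured and by -0.46 after position adjustment. *Pecam1* and *Cldn5* were well above background on some arrays only. Of 4 epithelial markers, *Epcam* and *Krt18* were well above background on no array, *Krt8* on 1 array, and *Cdh1* on the 3 1G11-SOD3 arrays and no 1G11-mock array (difference 0.30, adjusted p = 0.606, limma). Their summed level lay between 9.47 and 9.79 and between 9.42 and 9.73. Of 3 leukocyte markers, *Ptprc* and *Cd68* were well above background on no array, and *Cd3e* was so on all 6 (difference -0.47, adjusted p = 0.391, limma). Their summed level lay between 10.93 and 11.36 and between 10.67 and 10.98, with *Cd3e* the brightest probe on every array. The part of these markers in the values of *Ltbp2* and *Eng* was not tested.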

How the data were processed

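The authors deposited, for each array, Feature Extraction output (grid placement version 10.7.3.1) with spot and background intensity, not normalized. They also deposited a table of log2 values, which they had background corrected (normexp, offset of 50) and quantile normalized. Here the mean spot intensity was corrected with normexp (offset of 50), taken to log2 and quantile normalized without control spots, spots marked as outliers were left out, and copies of a probe were averaged apart in and outside the middle. limma 3.58.1 in R 4.3.3 compared 3 with 3 arrays. The number of arrays limits the precision. A gene was represented by its brightest probe outside the middle. The surface was fitted with mgcv 1.9.3 to deviations from the mean of the 6 arrays. Scripts were tested on simulated data.

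The genes named are all members, pathway genes called outside the middle, *Smad2*, *Smad3*, *Smad4*, *Smad7*, *Id1* and the cell type markers, and 1 further gene of this rule is not reported here. *Id2* and *Gdf2*, both in the middle, and *Dcn*, outside it, do not come under the rule and were named after their values were seen. Members and lists were chosen with earlier results of these data known. Arrays of the same number deviated together (correlation across 15177 probes of 0.14, 0.14 and 0.24), so the numbers were taken as pairs and tried as a block. The alternatives are given in the closing section. Figures were drawn with matplotlib 3.10.9.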

Additional observations from a re-analysis of the deposited data

How the results depend on the processing

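*Ltbp2*, and no other member by its brightest probe, was called under each of 12 other ways of processing, among them the deposited table, no background correction, dim probes left out and a variance trend, with differences from 1.49 to 1.89 (adjusted p from 0.00123 to 0.0431, limma). The *Tgfb1* copies in the middle were called with outlier spots kept (1.54). Leaving out 1 array gave 0 to 2 called members. With the replicate number as a block, 1 member and 5 pathway genes were called, as without it, and *Eng* and *Ltbp2* had an adjusted p of 0.0654 and 0.0114 (limma). The block changed no call of these genes. Pathway genes called rose from 5 to 8, 4 higher and 4 lower, with 75th percentile scaling of the scanner's own processed signal, where the median of all probes was -0.52 and 11244 probes were called against 1692. The genes added there were well above background on no array. Scaling to the 75th percentile in place of quantiles put the median of all probes at -0.33 and gave 7 called pathway genes, 6 higher and 1 lower. Over all probes, leaving out 1 array gave 801 to 1878 calls, no background correction 1093, 75th percentile scaling 2687, the block 2296 and leaving out the middle 768 of 49526.

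Signs changed for values near 0 and for the middle. *Tgfbr2* was 0.12 with 75th percentile scaling, 0.36 with the processed signal, 0.22 after position adjustment and 0.08 with the middle left out, and *Tgfbr1* was 0.07 and 0.09 under the last 2 of these. In the middle, *Tgfb1* was -0.14 with the processed signal and -0.70 after position adjustment, where *Acvrl1* was -1.25. With 1 array left out, *Tgfb2* ran from -0.31 to 0.24, *Tgfbr2* from -0.19 to 0.18, *Ltbp1* from -0.11 to 0.58 and *Tgfb1* in the middle from -0.28 to 0.91. *Tgfb2* and *Ltbp1* kept their sign but rose to 0.71 and 0.73 with the processed signal. The causes were not tested.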
